A study of Mus musculus with 9 samples.

Results

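The genes described here are Il4, Il5 and Il13, which encode the type 2 cytokines, together with Rad50 and Kif3a, which lie between and beside them on mouse chromosome 11. They were chosen by name and position, but with earlier results of these data known, and are 5 of the 23234 genes listed for each library. Expression was measured by RNA sequencing in group 2 innate lymphoid cells (ILC2s), tissue lymphocytes that carry no antigen receptor, taken from the lymphoid clusters of fat tissue in C57BL/6 mice of wild-type genotype. The cells were kept for 48 h in 1 of 3 conditions with 3 libraries each: IL-33 + IFNg, IL-33 + IL-27, and IL-33 alone, every cytokine at 10 ng/ml. All 3 groups therefore had IL-33, an alarmin that activates ILC2s, and no group without it was analysed here. IFNg is interferon gamma, the type II interferon, and IL-27 belongs to the family of IL-12. The labels do not say whether the 3 libraries of a group came from separate mice or cultures, so a p-value here reflects only how far these libraries scatter, which may be technical.

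IL-4, IL-5 and IL-13 are the effector cytokines of type 2 immunity. IL-5 drives the growth and survival of eosinophils, IL-13 acts on epithelium and smooth muscle and drives mucus production, and IL-4 directs the switch of B cells to IgE and the differentiation of T helper 2 cells. In T helper 2 cells the locus is opened by GATA3, and a control region inside the Rad50 gene acts on the cytokine genes. ILC2s are known for making large amounts of IL-5 and IL-13 and, in most settings, little IL-4. RAD50 is a subunit of the MRE11 complex that repairs broken DNA, and KIF3A is a motor subunit of kinesin-2, which serves the building of cilia.

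In the GENCODE vM1 annotation of genome build mm9, the 5 genes span 157.7 kb. Kif3a lies at chr11:53380881-53417746 on the forward strand, Il4 at chr11:53416484-53432171 and Il13 at chr11:53444826-53448204 on the reverse strand, Rad50 at chr11:53463021-53520821 on the reverse strand and Il5 at chr11:53534296-53538608 on the forward strand. The gaps are 12.7 kb between Il4 and Il13, 14.8 kb between Il13 and Rad50, and 13.5 kb between Rad50 and Il5. The annotated Kif3a and Il4 genes overlap by 1263 bp on opposite strands, through a processed transcript of Il4 that shares 179 exonic bases with the Kif3a gene; the 3 protein-coding transcripts of Il4 share none. Whether the deposited values used strand is not given in the sources used here, so reads in that overlap cannot be told apart. Irf1, which encodes an interferon-induced transcription factor, is the next gene past Il5, after 44.9 kb.

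The 250 bases before the RefSeq start of the 3 cytokine genes and of Irf1 are shown to describe the locus. The sequences are from the RefSeq promoter table of build GRCm38.p6; each has a single exact match in mm9, whose coordinates are given. An entry was found for 4 of the 5 locus genes; Rad50 had none. Capitals mark matches, on either strand, to any of 5 short motifs: GATA, the core bound by GATA factors; TTCNNNGAA, bound by STAT factors; GGAAA, the core bound by NFAT; TGANTCA, bound by AP-1; and an element bound by interferon regulatory factors, GAAA repeated after any 2 bases. The Il4 sequence is chr11:53432168-53432417 and the Il13 sequence chr11:53448205-53448454, both read on the reverse strand. The Il5 sequence is chr11:53534046-53534295 and the Irf1 sequence chr11:53583266-53583515, both on the forward strand.
Il4: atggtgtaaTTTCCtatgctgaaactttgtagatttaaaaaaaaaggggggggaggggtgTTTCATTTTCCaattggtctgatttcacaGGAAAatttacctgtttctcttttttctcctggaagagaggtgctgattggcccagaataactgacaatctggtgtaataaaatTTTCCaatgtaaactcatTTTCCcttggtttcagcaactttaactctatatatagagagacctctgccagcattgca
Il5: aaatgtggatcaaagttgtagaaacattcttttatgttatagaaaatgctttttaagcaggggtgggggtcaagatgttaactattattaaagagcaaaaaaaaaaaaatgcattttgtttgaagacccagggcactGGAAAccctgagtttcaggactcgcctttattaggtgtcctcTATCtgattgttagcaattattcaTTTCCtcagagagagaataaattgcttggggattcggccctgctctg
Il13: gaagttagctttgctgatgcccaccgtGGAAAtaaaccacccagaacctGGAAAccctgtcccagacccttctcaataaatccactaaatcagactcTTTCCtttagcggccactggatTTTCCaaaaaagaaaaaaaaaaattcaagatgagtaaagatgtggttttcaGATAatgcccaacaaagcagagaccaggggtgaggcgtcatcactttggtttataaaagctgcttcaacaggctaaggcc
Irf1: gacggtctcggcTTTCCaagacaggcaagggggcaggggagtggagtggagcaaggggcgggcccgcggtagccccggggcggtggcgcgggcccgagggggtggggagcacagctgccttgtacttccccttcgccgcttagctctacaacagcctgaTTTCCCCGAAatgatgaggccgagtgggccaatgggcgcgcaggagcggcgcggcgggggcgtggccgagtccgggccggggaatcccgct

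The Il5 sequence held 1 GATA match, 71 bases before the start and on the reverse strand, and 2 GGAAA matches. The Il13 sequence also held 1 GATA match, 80 bases before the start and on the forward strand, with 4 GGAAA matches. The Il4 sequence held no GATA, 5 GGAAA matches and 1 match to the interferon regulatory factor element that overlaps one of them. The Irf1 sequence held the only TTCNNNGAA match of the 4, overlapping a GGAAA match, and none of the 4 held TGANTCA. The Kif3a sequence, searched but not shown, held 1 GGAAA match and none of the other motifs. Of all 32536 promoter sequences of the same length, 53.4% hold GATA, 55.7% GGAAA, 7.04% TTCNNNGAA, 6.73% TGANTCA and 2.98% the interferon regulatory factor element. A match describes the letters only and is no evidence of binding.

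The deposited values are FPKM (fragments per kilobase of transcript, scaled by the authors to the mapped fragments), and no read counts were analysed here. The regular steps between low values put each library at roughly 958000 to 1073000 fragments. All 13 ILC2 markers listed, among them Gata3, Rora, Il1rl1 and Klrg1, were expressed at a level that allowed testing. T cell markers Cd4 and Cd5 were at 0 in every library and Cd3e reached at most 2.51 FPKM, while Cd3g stood at 28.4 to 97.6 FPKM; 7 of 10 mast cell and basophil markers were at 0 in every library, and the summed level of those 10 was 0 to 9.10 FPKM with IFNg, 2.27 to 11.5 FPKM with IL-27 and 1.13 to 5.70 FPKM with IL-33 alone. The 8 fibroblast markers, of which none was at 0 in every library, summed to 36.2 to 86.5 FPKM in the 3 libraries numbered 3, against 2.92 to 17.6 FPKM in the other 6. By group that sum ran from 3.94 to 86.5 FPKM with IFNg, 7.67 to 63.7 FPKM with IL-27 and 2.92 to 36.2 FPKM with IL-33 alone. What these other cells contribute to the cytokine values was not tested, and the main results are also given without the libraries numbered 3.

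Il5 and Il13 were among the most abundant transcripts of these cells in all 3 conditions. By FPKM, Il13 ranked between 5 and 32 and Il5 between 6 and 65 among the genes of each library. The pair together took 0.656 to 1.04% of the summed FPKM with IL-33 + IFNg, 1.39 to 1.59% with IL-33 + IL-27 and 1.84 to 3.14% with IL-33 alone. These 3 ranges did not overlap, but how many genes or pairs of genes separate all 3 groups was not counted. Taken singly, Il13 overlapped between IL-33 + IL-27 and IL-33 alone. Neither gene passed the test in that comparison (limma, adjusted p = 0.632 for Il5 and 0.494 for Il13). Rad50 stood far lower, at 55.3 to 73.4 FPKM over the 9 libraries, Il4 at 17.7 to 60.2 FPKM and Kif3a at 9.07 to 18.1 FPKM. FPKM is a level per length, so these genes can be set in order. Within each library the order from the top was Il13 and Il5, then Rad50, Il4 and Kif3a; only Il13 and Il5 changed places, and their ranges overlapped in every group, whereas Rad50, Il4 and Kif3a did not overlap in any group.

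**Figure D1:**
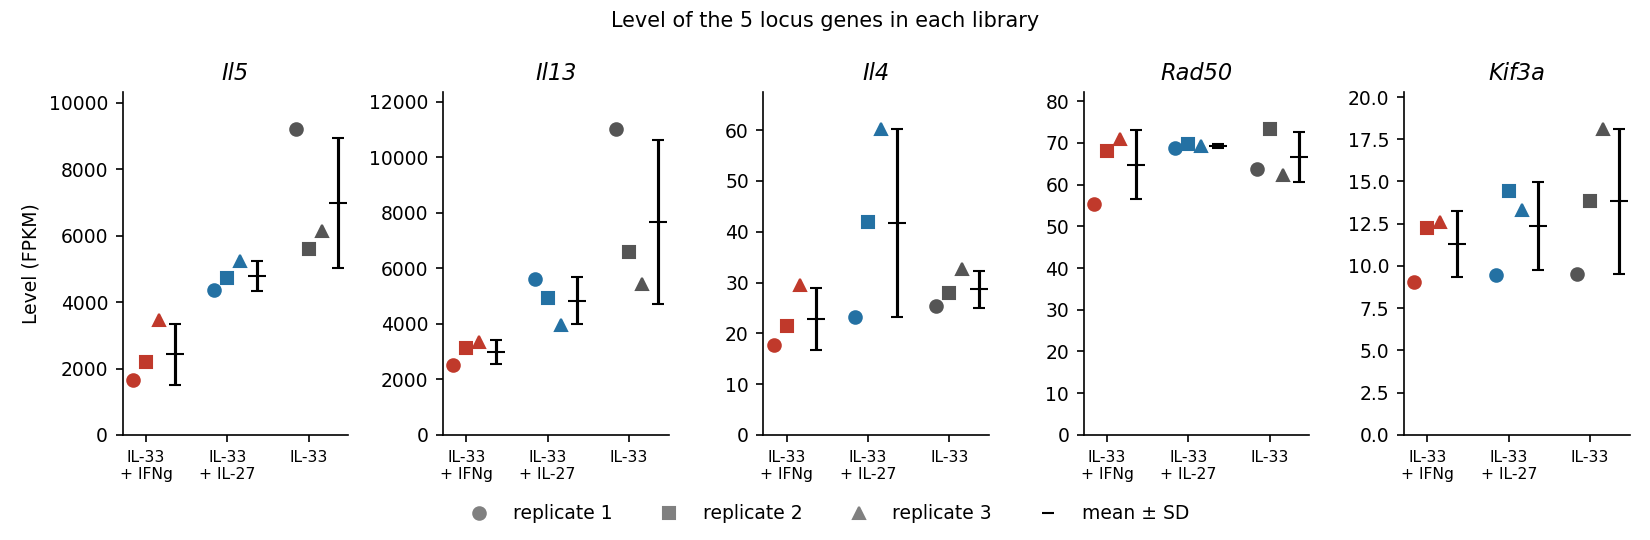
Level of the 5 genes in FPKM, on linear axes that start at 0 and differ between panels. Each symbol is 1 library, its shape gives the replicate number, and the black marks are the mean ± SD of 3 libraries. Il5 and Il13 in the 3 IL-33 + IFNg libraries lie below all IL-33 libraries, while Rad50 and Kif3a overlap between the groups.

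With IFNg added to IL-33, Il5 and Il13 fell, while Il4, Rad50 and Kif3a did not pass the test. Il5 was at 1656, 2183 and 3450 FPKM in the IL-33 + IFNg libraries numbered 1, 2 and 3, against 9222, 5587 and 6141 FPKM in the IL-33 libraries. The IFNg libraries were all below the lowest IL-33 library, and the highest value of all was that of IL-33 replicate 1. The means were 2430 ± 922 FPKM with IFNg and 6983 ± 1958 FPKM with IL-33 alone (SD, n = 3 each). The log2 fold change was -1.55 ± 0.28 (SE), a level 2.94-fold lower, with an adjusted p of 0.0167 in limma.

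Il13 behaved alike in direction. It was at 2511, 3132 and 3348 FPKM in the IL-33 + IFNg libraries, against 11034, 6582 and 5428 FPKM in the IL-33 libraries. Again the groups did not overlap, and IL-33 replicate 1 was the highest library. The means were 2997 ± 435 FPKM with IFNg and 7681 ± 2961 FPKM with IL-33 alone, and the log2 fold change was -1.30 ± 0.26 (SE), 2.46-fold lower (limma, adjusted p = 0.0282).

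Folds and standard errors here are on the scale of log2(FPKM + 1). The test was limma fitted to all 3 groups together over the 11014 genes that averaged 1 FPKM or more across the 9 libraries, with Benjamini-Hochberg adjustment and a threshold of 0.05. Of all genes tested, 2.91% passed in either direction and 0.717% were called lower; among the 5 locus genes 2 were called lower and 0 higher. Over the 5 genes the median log2 fold change was -0.34, beside 0.03 over all genes tested. Groups of IFNg below IL-33 without overlap were found for 8.65% of genes, and for 2 of the 5. In bulk RNA, fewer cells that express a gene and less of its RNA per cell cannot be told apart.

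Taken by replicate number, a pairing read from the data and not from the labels, the fall of both genes differed in size. Its presence in all 3 pairs follows from the lack of overlap and adds nothing to it. The IFNg library held 0.180 times the Il5 level of its IL-33 partner in pair 1, 0.391 times in pair 2 and 0.562 times in pair 3. For Il13 the corresponding ratios were 0.228, 0.476 and 0.617. Pair 1 thus had the largest fall of both genes and pair 3 the smallest. IL-33 replicate 1 also had the highest share of its summed FPKM in small RNA genes, 17.9%, against 3.45 to 13.6% in the other 8 libraries. With FPKM sums set equal after these genes were left out, the log2 fold change was -1.64 for Il5 and -1.38 for Il13 (limma, adjusted p = 0.0104 and 0.0295). When replicate number entered the fit as a block, the adjusted p was 0.00994 for Il5 and 0.0135 for Il13, and 11.2% of all genes tested were called.

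Both calls depended on the fit and on single libraries. With no filter on low values the adjusted p in limma was 0.0570 for Il5 and 0.0933 for Il13, and with only the 2 groups fitted it was 0.0728 and 0.0889. With 1 library left out, the Il5 adjusted p was 0.0559 without IFNg replicate 1, 0.0735 without IFNg replicate 2 and 0.0530 without IL-33 replicate 1, and it stayed under the threshold when any of the other 6 libraries was left out. For Il13 it was 0.109, 0.0894 and 0.0723 without IFNg replicate 1, 2 and 3, 0.0557 without IL-27 replicate 2, and 0.0530 and 0.0699 without IL-33 replicate 1 and 2. In the fits with 1 library left out, the log2 fold change lay between -1.84 and -1.31 (Il5) or -1.52 and -1.01 (Il13). A change of sign was not possible there, because the IFNg and IL-33 libraries did not overlap for either gene. The IL-27 libraries do not enter this fold change, so the kept direction adds nothing to the lack of overlap. Without all 3 libraries numbered 3, where fibroblast transcripts were high, the log2 fold change was -1.92 for Il5 (limma, adjusted p = 0.0374) and -1.60 for Il13 (0.0669).

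Il4, the third cytokine, was at 17.7, 21.4 and 29.5 FPKM with IL-33 + IFNg, against 25.4, 27.9 and 32.6 FPKM with IL-33 alone. The groups overlapped, although each IFNg library was below its IL-33 partner. The means were 22.8 ± 6.05 FPKM with IFNg and 28.6 ± 3.64 FPKM with IL-33 alone, and the log2 fold change was -0.34 with a 95% interval of -1.06 to 0.39 (limma, adjusted p = 0.692). That interval overlaps those of Il5 (-2.17 to -0.93) and Il13 (-1.89 to -0.71).

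The genes between and beside the cytokines gave smaller differences. Rad50 was at 55.3, 67.9 and 70.9 FPKM with IL-33 + IFNg, against 63.7, 73.4 and 62.4 FPKM with IL-33 alone, a log2 fold change of -0.04 with a 95% interval of -0.40 to 0.31 (limma, adjusted p = 0.941). This interval lies wholly above those of Il5 and Il13. Kif3a was at 9.07, 12.2 and 12.6 FPKM with IFNg, against 9.52, 13.9 and 18.1 FPKM with IL-33 alone, and its log2 fold change of -0.24 had an interval of -0.85 to 0.37 (limma, adjusted p = 0.747). Both genes overlapped between the groups.

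**Figure D2:**
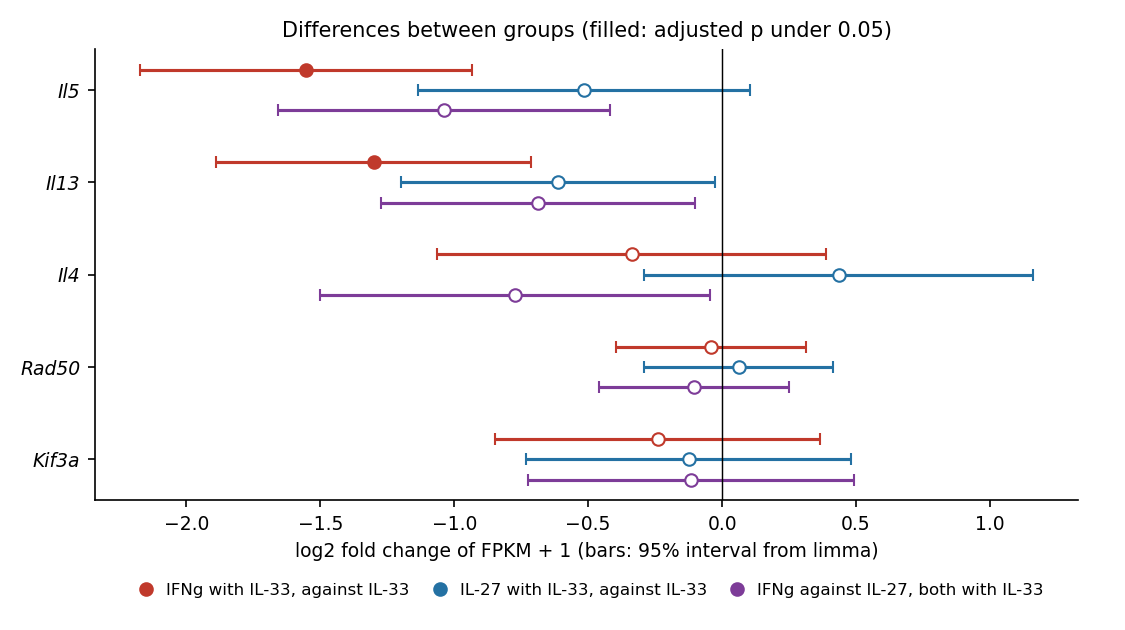
Log2 fold change of each gene in the 3 comparisons, with bars for limma's 95% interval and filled symbols for an adjusted p under 0.05. Il5 (-1.55) and Il13 (-1.30) with IFNg against IL-33 are the 2 filled symbols.

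With IL-27 added to IL-33, none of the 5 genes passed the test. Il5 was at 4377, 4717 and 5254 FPKM in the IL-33 + IL-27 libraries, against 9222, 5587 and 6141 FPKM in the IL-33 libraries. These groups did not overlap, as for 5.72% of all genes tested in this direction. The means were 4783 ± 442 FPKM with IL-27 and 6983 ± 1958 FPKM with IL-33 alone, and the log2 fold change was -0.51 with a 95% interval of -1.13 to 0.11 (limma, adjusted p = 0.632). The IL-27 library held 0.475, 0.844 and 0.856 times the level of its IL-33 partner in pairs 1, 2 and 3.

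Il13 was at 5637, 4918 and 3975 FPKM with IL-33 + IL-27, against 11034, 6582 and 5428 FPKM with IL-33 alone. Here IL-27 replicate 1 was above IL-33 replicate 3, although each IL-27 library was below its own partner. The means were 4843 ± 834 FPKM with IL-27 and 7681 ± 2961 FPKM with IL-33 alone, and the log2 fold change was -0.61 (95% interval -1.20 to -0.03; limma, adjusted p = 0.494).

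Il4 had its highest values with IL-27, but not in every library. It was at 23.2, 41.9 and 60.2 FPKM with IL-33 + IL-27, against 25.4, 27.9 and 32.6 FPKM with IL-33 alone. IL-27 replicates 2 and 3 were above all IL-33 libraries and IL-27 replicate 1 was below them. The means were 41.8 ± 18.5 FPKM with IL-27 and 28.6 ± 3.64 FPKM with IL-33 alone, and the log2 fold change of 0.44 had a 95% interval of -0.29 to 1.16 (limma, adjusted p = 0.757).

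Rad50 was at 68.8, 69.7 and 69.3 FPKM with IL-27, the narrowest spread of the locus, against 63.7, 73.4 and 62.4 FPKM with IL-33 alone. Kif3a was at 9.46, 14.4 and 13.3 FPKM with IL-27, against 9.52, 13.9 and 18.1 FPKM with IL-33 alone. Neither separated the groups, and their log2 fold changes were 0.06 (95% interval -0.29 to 0.42) and -0.12 (-0.73 to 0.48). Of all genes tested in this comparison, limma called 1.03% in either direction and 0.118% lower. Among the 5 genes 0 were called, 1 (Il13) had an unadjusted p under 0.05, as did 9.51% of all genes tested, and none was called with the replicate block, which called 5.15% of all genes tested.

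The same 3 IL-33 libraries served both comparisons, so IFNg and IL-27 were also compared directly. Both cytokines that fell with IFNg stood lower with IFNg than with IL-27 in every library. For Il5 the values were 1656 to 3450 FPKM with IL-33 + IFNg and 4377 to 5254 FPKM with IL-33 + IL-27, a log2 difference of -1.04 with a 95% interval of -1.66 to -0.42. For Il13 they were 2511 to 3348 FPKM with IL-33 + IFNg and 3975 to 5637 FPKM with IL-33 + IL-27, a log2 difference of -0.69 (-1.28 to -0.10). Such a lack of overlap, with IFNg lower, held for 4.03% of all genes tested.

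Il4 overlapped between IFNg and IL-27, with a log2 difference of -0.77 (95% interval -1.50 to -0.05), and was lower with IFNg in 3 of 3 pairs. Rad50 differed by -0.10 (-0.46 to 0.25) and Kif3a by -0.12 (-0.72 to 0.49). The unadjusted p in limma was 0.00396 for Il5, 0.0260 for Il13 and 0.0393 for Il4, and the adjusted p was 0.825 for Il5 and 1 for the other two. In this comparison 0 of the 11014 genes passed (0%), 483 (4.39%) had an unadjusted p under 0.05, and 20 passed with the replicate block (0.182%), none of them a gene of the locus. A difference between the effects of IFNg and IL-27 on Il5 or Il13 was therefore not shown.

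Ratios between the cytokine genes within a library show whether they changed by unequal amounts. The ratio of Il13 to Il5 FPKM was 1.52, 1.43 and 0.970 with IL-33 + IFNg, 1.29, 1.04 and 0.757 with IL-33 + IL-27, and 1.20, 1.18 and 0.884 with IL-33 alone. Replicate 3 had the lowest ratio in every group, and the groups overlapped. The mean log2 ratio was 0.25 higher with IFNg than with IL-33 alone (exact permutation test, two-sided, p = 0.4).

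The ratios of Il4 to Il5 and of Il4 to Il13 had higher group means with either added cytokine than with IL-33 alone, but none of these differences passed. The log2 ratio of Il4 to Il5 averaged -6.63 ± 0.18 with IL-33 + IFNg, -6.90 ± 0.55 with IL-33 + IL-27 and -7.85 ± 0.52 with IL-33 alone (SD, n = 3 each). It was above IL-33 alone by 1.22 with IFNg and by 0.95 with IL-27, with an exact permutation p of 0.1 for both. The ratio of Il4 to Il13 was above IL-33 alone by 0.96 with IFNg (exact permutation p = 0.1) and by 1.05 with IL-27 (exact permutation p = 0.3). With 3 libraries against 3, 0.1 is the smallest p this test can give, and over the 9 ratio tests the adjusted values ran from 0.3 to 0.9, so none passed.

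**Figure D3:**
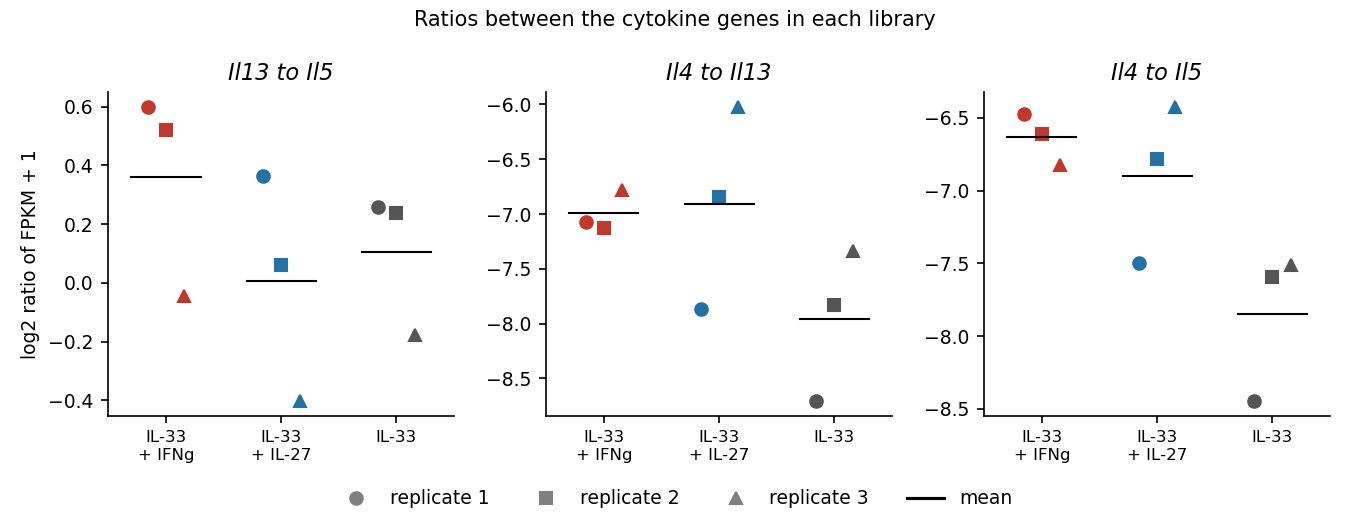
Log2 ratio of FPKM + 1 between pairs of cytokine genes in each library; shapes give the replicate number and lines the group mean. All 3 IL-33 + IFNg libraries lie above the IL-33 libraries for Il4 to Il13 and Il4 to Il5, and replicate 3 is lowest in every group for Il13 to Il5.

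The precision of these genes differed with their depth. Taking 1 protein-coding transcript for each gene, the Il4 values rested on about 7 to 24 fragments a library, those of Kif3a on 27 to 53 and those of Rad50 on 271 to 390. Those of Il5 rested on 2193 to 12123 and those of Il13 on 2498 to 10904. Counting error alone was then 20.3 to 38.3% of an Il4 value (1 Poisson SD), against 2.14% at most for Il5 and 2.00% at most for Il13, where the SD between libraries reached 37.9% and 38.5% of a group's mean. The Il4 difference between 23.2 and 60.2 FPKM within the IL-27 group corresponded to about 9 against 24 fragments. The fragment numbers are estimates from an annotation that may differ from that of the authors, and the intervals cover counting error only.

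**Figure D4:**
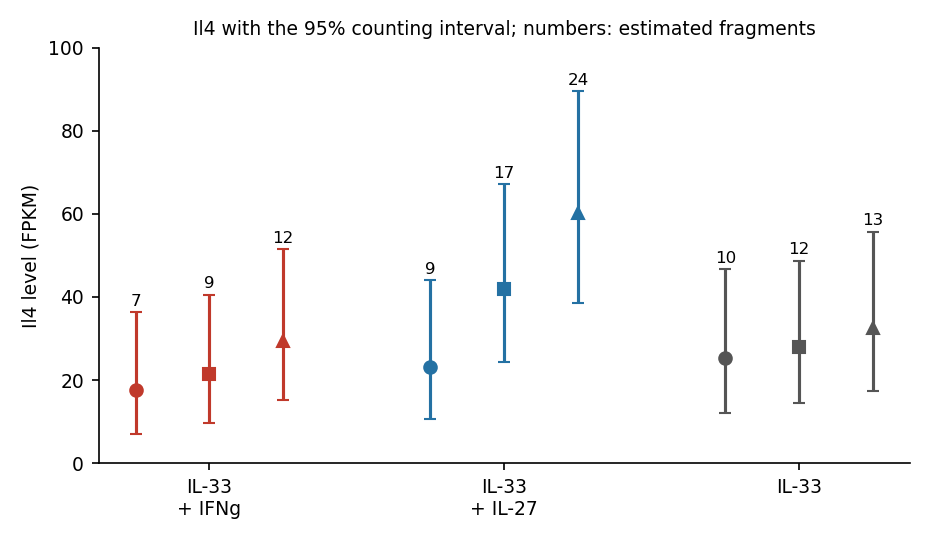
Il4 level in FPKM in each library, with the 95% Poisson interval of the estimated fragment number printed above it; shapes give the replicate number. The intervals of the 9 libraries, with 7 to 24 fragments each, overlap between the groups, except that of IL-27 replicate 3 (from 38.6 FPKM), which lies above that of IFNg replicate 1 (to 36.4 FPKM).

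Around the locus, 38 annotated genes have their start within 500 kb of that of Il13; 19 of them were listed and 14 tested, 9 of these besides the 5 locus genes. Of those 9, Irf1 was called higher against IL-33 with both added cytokines, and no other gene passed. Irf1 was at 438, 435 and 701 FPKM with IL-33 + IFNg, 390, 306 and 468 FPKM with IL-33 + IL-27, and 34.2, 27.4 and 92.8 FPKM with IL-33 alone. Every treated library was above every IL-33 library, and the share of all genes that separate upward in this way is not given here. The log2 fold change was 3.49 ± 0.41 with IFNg (limma, adjusted p = 0.00182) and 3.07 ± 0.41 with IL-27 (0.00648), and both calls held in all 9 omissions of a library.

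The other 8 tested neighbours include Uqcrq, a subunit of respiratory complex III, at 225 to 475 FPKM, the carnitine transporter Slc22a5 at 7.06 to 15.1 FPKM and the collagen prolyl hydroxylase subunit P4ha2 at 67.3 to 131 FPKM over all libraries. Slc22a21 stood at 1.56 to 6.65 FPKM. With the replicate block, which called 11.2% of all genes tested, 4 more neighbours passed with IFNg, named here after their values were seen: Hspa4, a heat shock protein (log2 -0.79, blocked adjusted p = 0.0137 in limma), Zcchc10 (-0.70, 0.0435) and Aff4, a scaffold of the super elongation complex (-1.18, 0.00508), were lower, and Gm12216 (1.99, 0.0141) was higher. Hspa4 was at 181, 224 and 194 FPKM with IFNg, against 249, 362 and 450 FPKM with IL-33 alone, with no overlap. The median log2 fold change of the 9 neighbours was -0.03 with IFNg, beside 0.03 over all genes tested.

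**Figure D5:**
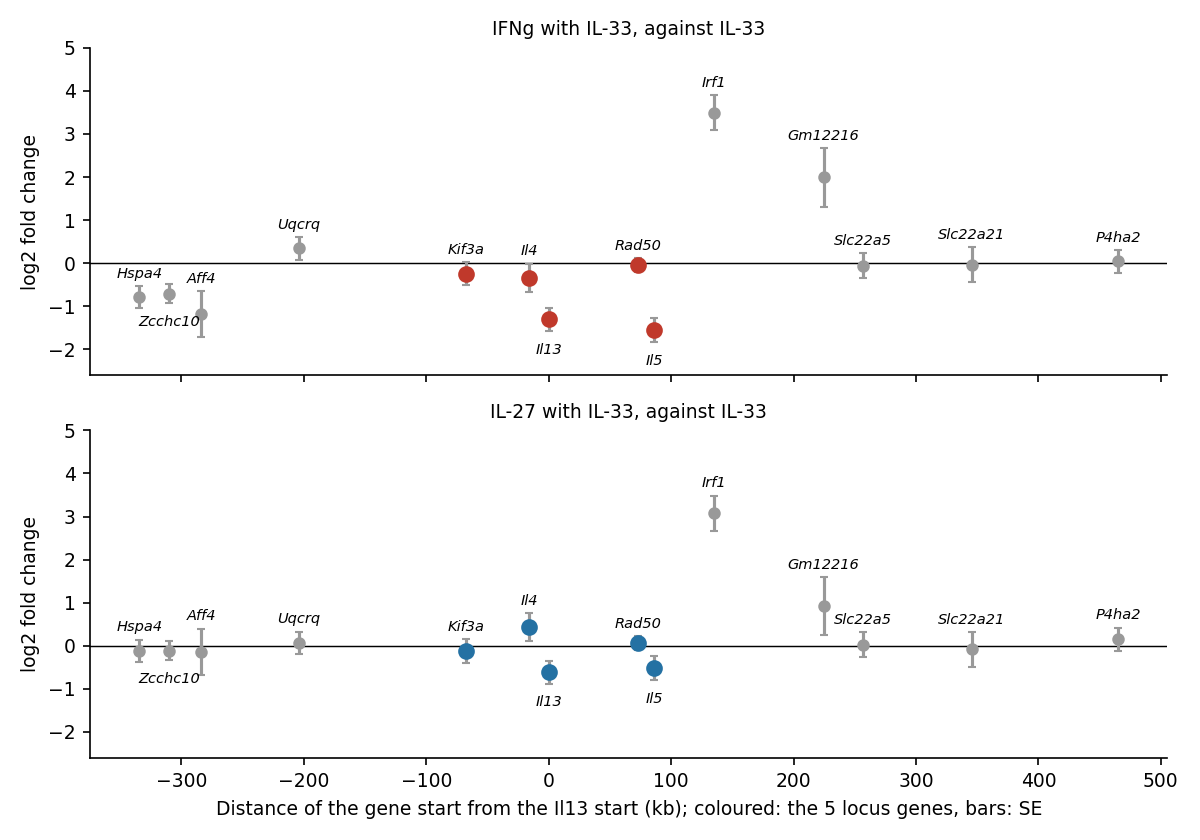
Log2 fold change on the scale of log2(FPKM + 1) of the 14 tested genes within 500 kb, against the distance of their start from that of Il13 in kb; bars are SE and coloured points the 5 locus genes. Irf1 (3.49 with IFNg, 3.07 with IL-27) stands above all others in both panels, and Il5 and Il13 lie below 0 beside Rad50 near 0.

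Transcription and chromatin factors known to bind or control the type 2 cytokine genes made a list of 45 names for 44 genes, since Dec2 is another name of Bhlhe41, and 43 were tested. With IFNg, 3 rose, 0 fell and 40 did not pass, where 2.91% of all genes tested passed. Among those that rose were Irf1, with the values given above, and Tbx21 (log2 2.64 ± 0.57, limma adjusted p = 0.0385), which encodes T-bet, the factor of type 1 lymphocytes that opposes GATA3. With IL-27, 2 rose, Irf1 among them, 0 fell and 41 did not pass, where 1.03% of all genes tested passed. The median log2 fold change of the list was 0.15 with IFNg and 0.17 with IL-27, beside 0.03 and 0.01 over all genes tested.

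Tbx21 was at 9.03, 6.42 and 3.70 FPKM with IL-33 + IFNg, 8.35, 2.38 and 0.800 FPKM with IL-33 + IL-27, and 0.433, 0 and 0 FPKM with IL-33 alone. It was low in all libraries and highest in those numbered 1 of both treated groups. It reached the mean of 1 FPKM needed for testing only through the treated groups, so its call is no independent support, and with no such filter it was not called (limma, adjusted p = 0.0617). Its fold depends on the pseudocount, the value added before the log: with 0.1 in place of 1 the log2 fold change was 5.12 with IFNg and 3.93 with IL-27. Its call with IFNg was lost without any IFNg library, any IL-33 library or IL-27 replicate 2 (limma, adjusted p = 0.0660 to 0.135). With IL-27 the log2 fold change was 1.77 (limma, adjusted p = 0.285), and 0.0412 with the replicate block.

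GATA3, the factor that defines ILC2s and type 2 cells, kept a high transcript level in all groups. Gata3 was at 208, 185 and 271 FPKM with IL-33 + IFNg, 246, 231 and 348 FPKM with IL-33 + IL-27, and 161, 183 and 272 FPKM with IL-33 alone. Its log2 fold change was 0.13 (95% interval -0.43 to 0.68) with IFNg and 0.43 (-0.12 to 0.98) with IL-27, and neither passed. Stat6, which carries the signal of IL-4 and IL-13, had log2 fold changes of 0.05 with IFNg and -0.28 with IL-27, and Maf, an activator of Il4, of -0.28 and 0.09; none passed. Bhlhe41 was listed at 0 in all 9 libraries.

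With the replicate block, 6 factors of the list passed as higher and 3 as lower with IFNg, and 6 and 2 with IL-27; of all genes tested, 11.2% and 5.15% passed in either direction. Among them, named after their values were seen, was Irf4, a factor induced by antigen receptor and activation signals in lymphocytes. It was at 12.6, 7.15 and 6.50 FPKM with IL-33 + IFNg, 9.67, 6.24 and 7.10 FPKM with IL-33 + IL-27, and 33.4, 24.5 and 13.7 FPKM with IL-33 alone. The IL-33 libraries were all above the treated ones. Counted singly, 8.65% of all genes tested separated this way with IFNg and 5.72% with IL-27. The log2 fold change was -1.32 with IFNg (limma, adjusted p = 0.0879; with the block 0.00848) and -1.46 with IL-27 (0.116; with the block 0.00924). In each comparison Irf4 passed in 1 of the 9 omissions of a library, that of IL-33 replicate 3 (limma, adjusted p = 0.0317 with IFNg and 0.0382 with IL-27). Over the 9 omissions the adjusted p in limma reached 0.266 with IFNg and 0.358 with IL-27. Bcl11b, a factor needed for ILC2 development, was also named after its values were seen. It was at 13.1, 13.3 and 18.6 FPKM with IFNg, 14.9, 11.1 and 16.7 FPKM with IL-27, and 6.10, 6.58 and 8.0 FPKM with IL-33 alone. The log2 fold change was 1.01 with IFNg (limma, adjusted p = 0.0515, with the block 0.00892) and 0.94 with IL-27 (0.130, with the block 0.0191). With IFNg it passed among genes averaging 5 FPKM or more (limma, adjusted p = 0.0402). It did not pass with no filter (limma, adjusted p = 0.0794) or in any of the 9 omissions (0.0613 to 0.189).

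RNA-binding proteins that control the stability of cytokine mRNAs made a list of 12, all tested. None passed in either comparison with IL-33. An unadjusted p under 0.05 in limma was found for 1 with IFNg and 0 with IL-27, where 15.4% and 9.51% of all genes tested had one. The 1 was Zc3h12d, named after its values were seen, at a mean of 2.23 FPKM with IFNg against 0.513 FPKM with IL-33 alone. With the replicate block 1 other gene was higher with IFNg, Zc3h12a, also named after its values were seen. It encodes the mRNA-cutting enzyme Regnase-1 (log2 0.68, blocked adjusted p = 0.0296 in limma). Zfp36l1, which binds AU-rich elements and promotes mRNA decay, had log2 fold changes of 0.30 with IFNg and 0.08 with IL-27, and neither passed. Between IFNg and IL-27, no gene of this list, of the factor list or of the receptor list below passed in limma, with or without the block; 0, 1 and 0 of them had an unadjusted p under 0.05, beside 4.39% of all genes tested.

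Receptor chains of IL-4, IL-5 and IL-13 and their Janus kinases made a list of 11, of which 8 were tested; Il5ra, Il13ra1 and Il13ra2 were too low. None passed against IL-33 in limma. An unadjusted p under 0.05 was found for 5 with IFNg and 2 with IL-27, where 15.4% and 9.51% of all genes tested had one. Among the 5, Il4ra, Csf2rb and Csf2rb2 were lower with IFNg. Il2rg (log2 0.52) and Jak2 (0.51), named after their values were seen, were higher with IFNg, and neither passed with the block. Jak2 was at 108, 121 and 157 FPKM with IFNg, all above the 93.1, 94.4 and 79.2 FPKM with IL-33 alone. With IL-27, Csf2rb was lower and Il2rg higher (0.51). Il4ra, the chain shared by the IL-4 and IL-13 receptors, was at 23.8, 28.3 and 50.0 FPKM with IL-33 + IFNg, 42.2, 44.6 and 62.8 FPKM with IL-33 + IL-27, and 52.4, 51.6 and 87.5 FPKM with IL-33 alone. The IFNg libraries were all below the IL-33 libraries, as for 8.65% of all genes tested, and replicate 3 was highest in every group. The log2 fold change with IFNg was -0.92 (limma, adjusted p = 0.191; with the block 0.00419). Csf2rb, the beta chain used by the IL-5 receptor, was at 0.849, 0 and 0.200 FPKM with IFNg, against 2.34, 2.25 and 10.0 FPKM with IL-33 alone. Its mouse-specific relative Csf2rb2 was at 0.572, 0.427 and 1.10 FPKM with IFNg, against 2.88, 2.74 and 7.20 FPKM with IL-33 alone. Both passed as lower with IFNg with the block only (0.0457 and 0.0258) and were named after their values were seen. With IL-27, Csf2rb was at 0.247, 0.827 and 1.0 FPKM and Csf2rb2 at 0.701, 0.422 and 4.0 FPKM. Their log2 fold changes with IL-27 were -1.57 and -1.10, and neither passed with or without the block. Csf2rb reached the mean of 1 FPKM needed for testing only through the IL-33 libraries, and both genes were highest in IL-33 replicate 3. They are close copies, so reads could be split between them.

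By the root mean square difference of centred log2 values over the 9 libraries, among the 6589 genes that averaged 10 FPKM or more, the genes most like Il5 were Slc16a3 (0.26), a lactate transporter, Aqp9 (0.29), a channel for water and glycerol, and Il13 (0.31). Those most like Il13 were Igsf8 (0.25), B4galt5 (0.27) and Chpf (0.28), and Il5 came 9th. Il5 and Il13 thus stood near the top of each other's order. A rank depends on the gene it is counted from. A gene that did not vary would stand at the own spread of that gene: 0.72 for Il5, 0.61 for Il13 and 0.49 for Il4. From Il5, Il4 (0.64) ranked 792, Rad50 (0.69), which lies between Il5 and Il13, 1440, and Kif3a (0.69) 1507. From Il13, Rad50 (0.59) ranked 1712, Kif3a (0.67) 3075 and Il4 (0.73) 4016. These distances were near or above the own spread, so such ranks say little about likeness. From Il4, Kif3a (0.39) ranked 587, Rad50 (0.44) 1247, Il5 (0.64) 4325 and Il13 (0.73) 5283. For Il4 the nearest were Gm7367 (0.18), Nucb2 (0.21) and Pxk (0.22). For Rad50 they were Utp3, Sec23b and 1200014J11Rik, and for Kif3a they were Ezr, Anapc4 and Copb1, all at 0.06 to 0.07.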

How the data were processed

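The submitters' processing notes name TopHat2 2.0.8, Bowtie2 2.1.0, Cufflinks 2.1.1 and mouse build mm9; roles, parameters and gene models are not given in the sources used here. The deposited tables hold 1 value per gene and library, read as FPKM from the authors; the unit is not written there and was inferred from the tools named and the values. Commas that group digits were removed from the replicate 3 tables, and 25 symbols turned into dates were left unnamed.

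Values were analysed as log2(FPKM + 1). limma 3.58.1 (R 4.3.3; lmFit, contrasts.fit and eBayes with trend, two-sided) was fitted to all 9 libraries over the 11014 genes that averaged 1 FPKM or more, with Benjamini-Hochberg adjustment within a comparison and a threshold of 0.05. The code of the fit was run on simulated libraries that scattered independently, with the same spread for every gene. The real libraries did not scatter independently, so that run says nothing about the calls given here. Ratios were compared by exact permutation, two-sided. Python 3.11.15, numpy 2.4.6, pandas 2.3.3, scipy 1.17.1 and matplotlib 3.10.9 were used. Deviations from group means correlated at 0.128 to 0.367 in the 9 pairs of libraries with equal numbers and at -0.298 to -0.0251 in the 18 other pairs, so equal numbers were treated as pairs, a reading from the data and not from the labels.

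The locus genes and the gene lists were chosen with earlier results of these data known. Named besides them were the window genes, up to 3 called members a list, 8 genes of the lists named always, and the 3 genes most like each locus gene. Several choices followed a look at the data. For depth, an open search for the step between low values also returned finer steps, fractions of the one used; the search was then held near the first peak of the low values, with 200 nt taken off each transcript length, the best of the 4 lengths tried in all 9 libraries. A depth above the one given is therefore possible, and the fragment numbers are approximate. The transcript for each fragment number was picked by hand, the start of a gene was read as its 5′ end, the outermost start was used for promoters, and the capitals were widened to 5 motifs after the first output. Of the genes that the naming rule takes, 1 is not reported here. The alternatives tried are given in the closing section.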

Additional observations from a re-analysis of the deposited data

How the results depend on the processing

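Alternatives were a pseudocount of 0.1, no filter on low values, a mean of at least 5 FPKM, the replicate block, median-of-ratios scaling, equal FPKM sums without small RNAs, a fit of only the 2 groups compared, omission of each library, and omission of replicate 3. The block without replicate 3 was chosen after seeing the data. No scaling moved the median of all genes by over 0.1 on the log2 scale. The cause of a changed call was not tested, beyond more genes tested without the filter and fewer libraries in the smaller fits.

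With IFNg against IL-33, the Il5 adjusted p in limma was 0.0570 with no filter and 0.0728 with only the 2 groups, at a log2 fold change of -1.55; that of Il13 was 0.0933 and 0.0889, at -1.30. Without replicate 3, Il13 had -1.60 (0.0669). Tbx21 was not called with no filter (0.0617), equal sums (0.0503) or without replicate 3 (0.0716). Kif3a with IL-27 was 0.022 on the log2 scale without replicate 3, with and without the block. Genes called with IFNg, with IL-27 and in the direct comparison, 320, 113 and 0 as reported, were 1230, 567 and 20 with the block, which ended no call of the locus and added none. They were 176, 68 and 2 without replicate 3. With only the 2 groups 187 were called with IFNg and 63 with IL-27. In the direct comparison 2 passed with no filter and 3 with the block without replicate 3, which called 188 with IL-27. 

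Leaving out each library in turn and replicate 3 as a whole gave log2 fold changes with IFNg of -1.92 to -1.31 (Il5), -1.60 to -1.01 (Il13) and -0.15 to 0.065 (Rad50), the last above 0 without IFNg replicate 1 (0.065) or IL-33 replicate 2 (0.029). Kif3a with IL-27 ran from -0.35 to 0.079, above 0 without IL-27 replicate 1 (0.044), IL-33 replicate 3 (0.079) or replicate 3. In the direct comparison Rad50 ran from -0.17 to 0.0033 and Kif3a from -0.28 to 0.022, both above 0 without IFNg replicate 1. The counts called ran from 161 to 303 with IFNg, 50 to 128 with IL-27 and 0 to 2 directly. They moved by over 1.5 times with IFNg without IFNg replicate 1 (192), 2 (161) or 3 (186) and IL-33 replicate 1 (204) or 2 (181), and with IL-27 without IL-27 replicate 1 (50), 2 (68) or 3 (50), IFNg replicate 2 (73) and IL-33 replicate 1 (69) or 2 (57). Of the ratios, Il13 to Il5 with IL-27 turned to 0.11 and Il4 to Il13 in the direct comparison (range -0.56 to 0.36) to 0.36 without IL-27 replicate 3, and Il4 to Il5 in the direct comparison (range -0.032 to 0.51) to -0.032 without IL-27 replicate 1. Depth limits Il4 most, at 7 to 24 estimated fragments.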
